A study of Rattus norvegicus with 9 samples.

Results

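A set of 110 rat gene IDs had a normoxia level at least 4 times their level after hypoxia and reoxygenation. They came from 30560 Ensembl IDs in the count tables, of which 15879 passed a filter on low counts. Levels are in CPM, the counts of an ID scaled to a common library size. An ID was taken when its mean over all 9 libraries was at least 1 CPM and its normoxia mean was at least 4 times its mean in the solvent-treated, reoxygenated libraries. The IDs were thus chosen mainly by their normoxia and solvent-treated levels, and their decrease is given below as a description, without a test. Libraries treated with AS8351 count in the mean over 9 libraries, so an ID near 1 CPM can enter partly through them.

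RNA was sequenced from rat heart cells that the labels call NRCM and cardiomyocytes, in 3 groups of 3 libraries. The normoxia group was not made hypoxic, and its labels name no solvent. The H/R-DMSO group spent 6 h at 0.1% oxygen in medium lacking glucose and sodium pyruvate followed by 12 h of reoxygenation at 21% oxygen, with DMSO, the compound's solvent, in the standard medium. H/R stands for hypoxia and reoxygenation. The H/R-AS8351 group had the same steps with 0.5 µM AS8351 during reoxygenation. The labels describe AS8351 as an inhibitor of Kdm5b, an enzyme that removes a histone methyl mark found at active promoters. No genetic change is labelled in any group. Whether replicate libraries stem from separate cultures is not labelled, and the spread behind the p-values may therefore be technical.

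Cardiomyocytes depend on a steady oxygen supply, because most of their ATP comes from mitochondrial respiration. Loss of oxygen and fuel followed by their return is a culture model of a blocked and reopened coronary artery. Such stress is known to shift the RNA of heart cells, with stress genes rising while parts of the contractile and metabolic programme fall. Which programme the IDs described here belong to could not be read: the count tables hold IDs without names, and the rat gene table used here pairs 0 of them with a symbol. Neither Kdm5b nor Brinp2, the genes of the series title, nor markers of cardiomyocytes or other heart cells could be looked up, and the labelled cell type was not checked. The RNA is from bulk culture, so a lower level cannot be told apart from fewer cells of a type that carries the RNA.

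The libraries held between 34442733 and 54888975 counts. Together the 110 IDs took 1.61% ± 0.0128 (SD, n = 3) of the TMM-scaled library size in normoxia. The share was 0.248% ± 0.00286 after H/R with DMSO and 0.716% ± 0.0181 after H/R with AS8351. That size is the read total of the IDs tested times a TMM factor. The factor was 0.93 to 0.94 in normoxia, 1.04 to 1.05 with DMSO and 1.01 to 1.03 with AS8351. These values are therefore not shares of the reads sequenced. Per library the share was 1.60%, 1.61% and 1.63% in normoxia, 0.245%, 0.251% and 0.248% with DMSO, and 0.695%, 0.727% and 0.726% with AS8351. The 3 groups did not overlap, but the rule itself set normoxia apart from H/R-DMSO, so nothing is read from that gap. The 397 IDs of at least 1 CPM that fell 2- to 4-fold did not overlap either. Their share was 9.96% to 10.2% in normoxia, 4.09% to 4.30% with DMSO and 5.74% to 6.11% with AS8351. On this scale the H/R-AS8351 share of the 110 IDs stood 34.3% of the way from H/R-DMSO to normoxia.

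The set spanned a wide range of levels. Normoxia means ran from 1.89 to 3507 CPM with a median of 18.9 CPM, close to the median of 18.7 CPM over all IDs tested. Of the 110 IDs, 26 had a normoxia mean of at least 100 CPM, 34 lay between 10 and 100 CPM, and 50 lay under 10 CPM. In H/R-DMSO the median of the set was 2.77 CPM and in H/R-AS8351 it was 8.06 CPM. CPM is not divided by gene length, so the order of IDs by CPM is an order of reads and not of RNA molecules.

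The ratio of normoxia to H/R-DMSO had a median of 5.40 and reached 37.0. It was between 4 and 5 for 45 IDs, between 5 and 8 for 46, between 8 and 10 for 7 and at least 10 for 12. In all 110 IDs the 3 normoxia values lay above the 3 H/R-DMSO values, against 27.5% of all IDs tested, and all 110 were called lower by edgeR's quasi-likelihood test at an adjusted p of 0.05, against 25.2% of all IDs tested. The rule used these libraries, so nothing is read from those counts. The 3 IDs just inside the limit had ratios of 4.01, 4.02 and 4.02, with normoxia means of 31.9, 214 and 6.23 CPM. Just outside it stood ratios of 3.98, 3.98 and 3.96, with normoxia means of 1.64, 1578 and 3.20 CPM. A further 65 IDs fell at least 4-fold but had a mean below 1 CPM and are not described here.

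**Figure D1:**
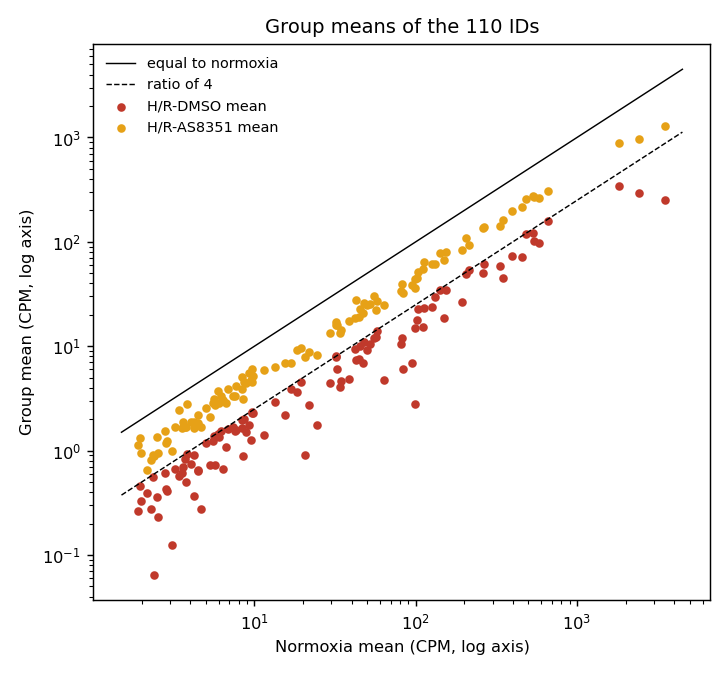
Normoxia mean of each of the 110 IDs on the horizontal axis against its H/R-DMSO mean (red) and H/R-AS8351 mean (amber) on the vertical axis, both in CPM on log axes, with lines at equal level and at a ratio of 4. The red points lie on or below the lower line because the rule chose them so, and the amber points form a band between the lines over the whole range from 1.89 to 3507 CPM.

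ENSRNOG00000001414 had the highest level of the set. Its normoxia libraries stood at 3434, 3519 and 3568 CPM, its H/R-DMSO libraries at 241, 259 and 262 CPM and its H/R-AS8351 libraries at 1219, 1309 and 1309 CPM. The groups were far apart compared with the spread inside each, and on the CPM scale the treated libraries lay nearer to H/R-DMSO than to normoxia, with a position of 31.5% of the way. On the log2 scale they lay nearer to normoxia, at 61.6%. Relative to H/R-DMSO its log2 fold change with AS8351 was 2.33 with an SE of 0.04 (edgeR adjusted p = 4.77e-38). Relative to normoxia it was -1.46 with an SE of 0.03 (edgeR adjusted p = 4.11e-31). The H/R-DMSO and normoxia libraries in these tests also chose the ID, as they did for every ID below.

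ENSRNOG00000058645 came next, with 2362, 2417 and 2445 CPM in normoxia. It stood at 286, 303 and 299 CPM with DMSO and at 918, 974 and 983 CPM with AS8351. The third by level, ENSRNOG00000019598, had 1803, 1820 and 1810 CPM in normoxia, 344, 348 and 337 CPM with DMSO and 891, 889 and 891 CPM with AS8351. Its 3 treated libraries were almost equal. These 3 IDs held 47.9% of the summed normoxia CPM of the set.

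The other 5 of the 8 IDs highest in normoxia were ENSRNOG00000009867, ENSRNOG00000006462, ENSRNOG00000005053, ENSRNOG00000013141 and ENSRNOG00000001214. Their normoxia means lay between 483 and 663 CPM, their H/R-DMSO means between 96.9 and 157 CPM and their H/R-AS8351 means between 259 and 309 CPM. In each of them the 3 groups did not overlap. Among these 5, ENSRNOG00000001214 had the widest spread between treated libraries, at 234, 270 and 271 CPM, with replicate 1 the low one.

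The size of the decrease did not follow the level closely (Spearman correlation of ratio and normoxia level -0.06 across the 110 IDs, a description). ENSRNOG00000016659 had the highest ratio of the set, from 2.39 ± 0.620 CPM (SD, n = 3) in normoxia to 0.0646 ± 0.0175 CPM in H/R-DMSO. It rested on only 2, 2 and 4 counts in the H/R-DMSO libraries, against 122, 128 and 61 in normoxia. Pooled over the libraries of each group, the ratio was 36.6 with an exact 95% interval from 18.3 to 85.5, which covers counting error only. In H/R-AS8351 this ID had 34, 37 and 43 counts, or 0.879 ± 0.0986 CPM.

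ENSRNOG00000017766 had nearly the same ratio, 35.2, at a level that is well counted. Its libraries stood at 97.0, 98.8 and 99.1 CPM in normoxia, at 2.75, 3.34 and 2.29 CPM with DMSO and at 34.0, 36.7 and 37.3 CPM with AS8351. The 3 groups were far apart, and the treated libraries were more than 10 times the H/R-DMSO libraries.

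**Figure D2:**
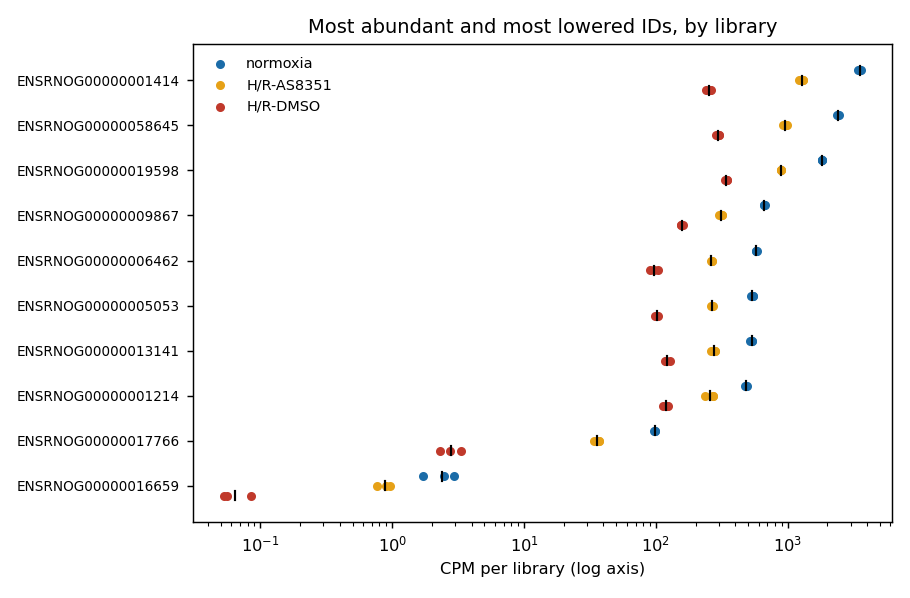
CPM in each of the 9 libraries (points, log axis) for the 8 IDs with the highest normoxia mean and the 2 with the highest ratio, with a short black bar at each group mean. In each ID the H/R-AS8351 libraries lie between the H/R-DMSO and the normoxia libraries without overlap.

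To ask what AS8351 changed during reoxygenation, treated libraries were compared with those that had the solvent. With AS8351, 108 of the 110 IDs were called higher than in H/R-DMSO and 0 were called lower, against 13.1% of all IDs tested called higher (edgeR, Benjamini-Hochberg adjusted p under 0.05). The 3 treated libraries lay above the 3 H/R-DMSO libraries in 109 of the 110, against 18.2% of all IDs. The median log2 fold change was 1.42, from 0.68 to 3.71, against a median of -0.01 over all IDs. In mean CPM, 101 of the 110 were at least 2-fold higher than in H/R-DMSO, which held for 1.95% of all IDs. An ID whose H/R-DMSO values are low by chance enters the set more easily and then also looks raised in another group. The treated libraries also count in the mean of at least 1 CPM, which favours low IDs with high treated values. These counts are therefore no independent evidence of an increase.

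Set against normoxia, 107 of the 110 IDs were still called lower in H/R-AS8351 and 0 were called higher, against 19.7% of all IDs called lower. The median log2 fold change was -1.09, from -1.71 to -0.45, against 0.01 over all IDs. In 109 of the 110 the 3 treated libraries lay below the 3 normoxia libraries, which was so for 24.6% of all IDs. In 73 the treated mean was at least 2-fold below the normoxia mean, against 1.59% of all IDs. This comparison shares the normoxia libraries with the rule, and the treated libraries count in the mean over 9 libraries. Both calls together, higher than H/R-DMSO and lower than normoxia, held for 105 of the 110 IDs and for 7.77% of all IDs.

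To avoid the shared libraries, the set was chosen again without one normoxia and one H/R-DMSO library of the same number, and the 2 libraries left out were then compared. Between 101 and 111 IDs were chosen in this way, of which 95 to 104 were also in the full set. In the left-out libraries the median ratio was 5.67, 5.36 and 5.54 for numbers 1, 2 and 3. A ratio of at least 3 was seen in 96 of 101, 106 of 111 and 102 of 108 IDs, and a ratio of at least 4 in 88, 90 and 85. The treated mean exceeded the left-out H/R-DMSO library in 101 of 101, 111 of 111 and 107 of 108 IDs. For these counts the share over all IDs tested was not computed. The decrease was thus also present in libraries outside the ratio and the mean of the choice, though they had entered the filter and the scaling. As replicates may not be separate cultures, this may show technical repeatability only. The treated mean lay above the left-out H/R-DMSO library in all but 1 case, with the treated libraries still part of the mean of the choice.

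How near each ID stood to normoxia with AS8351 was measured as a position. The mean CPM with AS8351 was placed on the distance from the H/R-DMSO level (0%) to the normoxia level (100%). No library was labelled as taken at the end of hypoxia. A smaller fall can therefore not be told apart from a fall followed by recovery. In the text below, returned refers to this position only. The median position of the 110 IDs was 35.9%, with an interquartile range from 32.0% to 39.6%. By library the median was 33.9%, 37.1% and 36.9% for replicates 1, 2 and 3, a mean of 35.9% ± 1.81 (SD, n = 3). Replicate 1 of H/R-AS8351 was the lowest of the 3 treated libraries in 63 of the 110 IDs, replicate 2 in 22 and replicate 3 in 25. With the left-out libraries as the end points, the median position was 35.8%, 36.9% and 35.5%.

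Of the 110 IDs, 100 had a position between 20% and 50%, 8 lay above 50% and 2 below 20%. Among the 397 IDs that fell 2- to 4-fold these counts were 299, 52 and 46. The position followed neither the level nor the size of the decrease closely. Across the 110 IDs its Spearman correlation was -0.03 with the normoxia level and -0.16 with the ratio, as a description of IDs that share the same 9 libraries. The 45 IDs with a ratio from 4 to 5 had a median position of 37.4%, the 46 with a ratio from 5 to 8 had 36.9% and the 19 with a ratio of 8 or more had 33.1%. Since similar positions mean larger fold increases for IDs that fell further, the median ratio of H/R-AS8351 to H/R-DMSO was 2.23, 2.95 and 4.69 in these 3 classes.

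**Figure D3:**
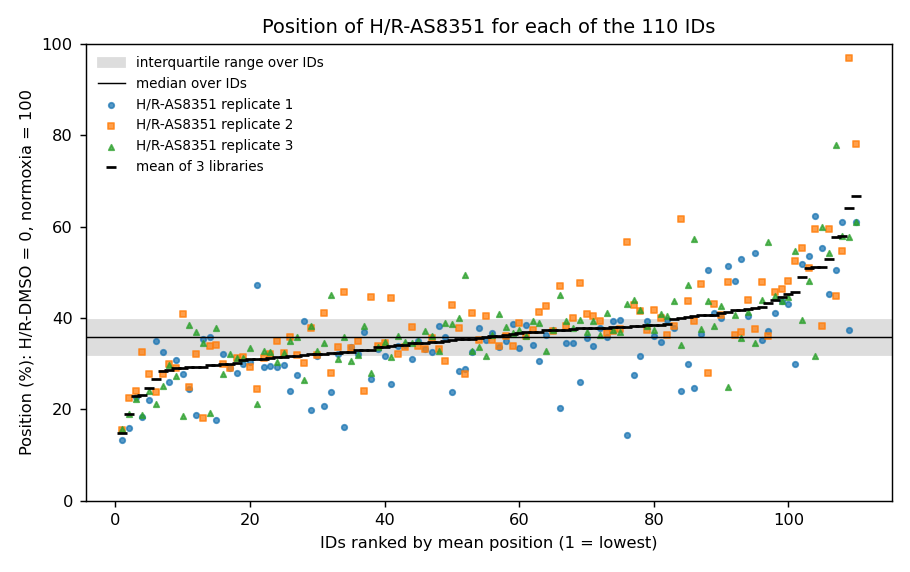
Position of each of the 110 IDs in percent, ranked by its mean (black bars), with the 3 H/R-AS8351 libraries as coloured symbols, the median of 35.9% as a line and the interquartile range from 32.0% to 39.6% in grey. Most IDs lie in or near the grey band, and for many IDs the 3 libraries fall on both sides of the line.

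The spread of the positions depended on the level. In the 37 IDs with the highest mean over 9 libraries, from 29.3 CPM upward, positions ran from 23.0% to 45.3% with an interquartile range of 5.09 percentage points, and the median standard error of a position was 1.29 points. In the 36 IDs with the lowest mean, up to 3.73 CPM, positions ran from 14.9% to 66.7% with an interquartile range of 9.13 points, and the median standard error was 6.90 points. The median position was 36.1% in the first of these classes, 35.2% in the second and 35.7% in the 37 IDs between them. Of all 110 IDs, 74 lay within 2 standard errors of the common median, 14 lay further above it and 22 further below it. A standard error from 3 libraries per group is itself imprecise.

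**Figure D4:**
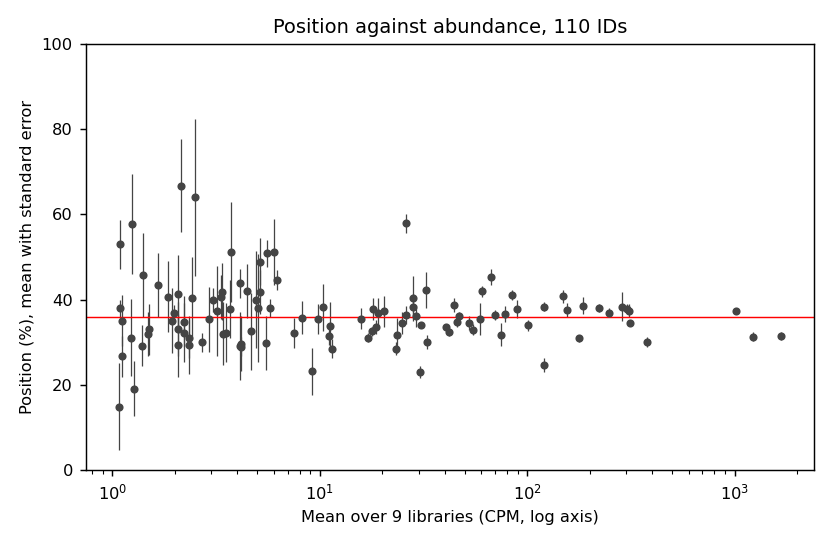
Position in percent with its standard error (points and bars, from the spread of 3 libraries per group) against the mean over 9 libraries in CPM on a log axis, for the 110 IDs, with a red line at the median of 35.9%. The spread narrows towards the right, and over the whole range 22 IDs lie more than 2 standard errors below the line and 14 above it.

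The 6 IDs that returned least had positions from 14.9% to 26.7%. They were picked by these positions, which use the treated libraries, so their calls against H/R-DMSO are descriptions. The lowest was ENSRNOG00000013953, at 1.86, 2.12 and 2.51 CPM in normoxia, 0.802, 0.278 and 0.106 CPM with DMSO and 0.633, 0.668 and 0.675 CPM with AS8351. It was the one ID whose treated and H/R-DMSO libraries overlapped, through replicate 1 of H/R-DMSO with 30 counts against 10 and 5 in the others. Its log2 fold change with AS8351 was 0.78 with an SE of 0.43 (edgeR adjusted p = 0.198). Without that library the log2 fold change was 1.83 (adjusted p = 0.00413) and the position 23.7%. Without replicate 3 of H/R-DMSO they were 0.28 (adjusted p = 0.707) and 7.32%, so single libraries set how low it stands. Its ratio of normoxia to H/R-DMSO was 5.48 with all libraries. It was 11.3 without replicate 1 of H/R-DMSO and 4.01 without replicate 3.

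ENSRNOG00000031706 followed at 19.1%, with 2.27, 1.52 and 3.22 CPM in normoxia. It had 0.902 ± 0.0588 CPM with AS8351 against 0.563 ± 0.123 CPM in H/R-DMSO, and was the other ID not called (edgeR adjusted p = 0.153). Without replicate 3 of normoxia its ratio was 3.37, below the limit of 4, and its position 25.4%. Without replicate 2 of normoxia the position was 15.5%. ENSRNOG00000070554, at 26.7%, was likewise a low ID, with 9 to 14 counts in the H/R-DMSO libraries. The order among these low IDs is within their errors, since their standard errors lie between 4.84 and 10.2 percentage points.

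The well-counted IDs among the least returned were ENSRNOG00000014361, ENSRNOG00000005690 and, at a lower level, ENSRNOG00000002381. ENSRNOG00000014361 stood at 55.9, 59.6 and 53.9 CPM in normoxia, 13.2, 11.7 and 11.7 CPM with DMSO and 22.3, 22.8 and 22.03 CPM with AS8351. Its position was 22.8%, 24.02% and 22.2% in the 3 treated libraries, each below the interquartile range of the set. ENSRNOG00000005690 stood at 213, 211 and 218 CPM in normoxia, 53.3, 52.8 and 53.7 CPM with DMSO and 88.8, 97.8 and 92.0 CPM with AS8351. Its positions of 22.1%, 27.8% and 24.1% also lay below that range in each library. Without replicate 3 of normoxia its ratio was 3.98, below the limit of 4. ENSRNOG00000002381, at 23.2% ± 8.09 (SD, n = 3), had positions of 18.2%, 32.5% and 18.8%, so that replicate 2 reached the range of the set. Without replicate 1 of H/R-DMSO its ratio was 3.97, also below the limit of 4. All 3 were called higher with AS8351, by log2 fold changes of 0.88, 0.80 and 0.80. Their mean positions picked them, and the positions of an ID share the same H/R-DMSO and normoxia means. Their place below the range is thus a description.

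Among the 6 IDs that returned most, ENSRNOG00000015736 was the best measured. It had 43.4, 41.5 and 43.9 CPM in normoxia, 7.40, 7.26 and 7.56 CPM with DMSO and 29.1, 26.8 and 28.0 CPM with AS8351. Its position was 61.1%, 54.6% and 57.9% in the 3 libraries, all above the interquartile range. The mean of these positions picked the ID, and all 3 share the same H/R-DMSO and normoxia means, so this is a description. Its log2 fold change with AS8351 was 1.91 with an SE of 0.07 relative to H/R-DMSO (edgeR adjusted p = 6.05e-24) and -0.62 with an SE of 0.06 relative to normoxia (edgeR adjusted p = 7.00e-11).

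The other 5 were ENSRNOG00000014882 at 66.7%, ENSRNOG00000022483 at 64.0%, ENSRNOG00000003005 at 57.8%, ENSRNOG00000001006 at 52.99% and ENSRNOG00000070062 at 51.2%. All were low, with H/R-DMSO means between 0.266 and 2.30 CPM and standard errors of the position from 5.71 to 18.5 percentage points. In ENSRNOG00000022483 the treated libraries stood at 2.00, 3.72 and 2.59 CPM, and replicate 2 overlapped normoxia at 4.09, 4.02 and 3.31 CPM. Without that library its position was 47.6%. Its ratio of normoxia to H/R-DMSO was 3.76, below the limit of 4, without replicate 2 of H/R-DMSO. That of ENSRNOG00000070062 was 3.87 without replicate 1 of H/R-DMSO. In ENSRNOG00000003005, replicate 1 of H/R-DMSO stood at 0.802 CPM against 0.334 and 0.233 CPM in the others. Without it the ratio was 6.89 in place of 4.28. Without replicate 2 or 3 of H/R-DMSO the ratio was 3.77 or 3.44, below the limit of 4. ENSRNOG00000001006 and ENSRNOG00000003005 averaged only 1.09 and 1.24 CPM over 9 libraries, near the limit of 1 CPM to which their treated levels contribute.

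The 3 IDs not called lower than normoxia with AS8351 all came from these 5, which were picked for standing closest to normoxia. Nothing is read from that overlap. They were ENSRNOG00000014882 (log2 fold change -0.46, adjusted p = 0.0888 by edgeR), ENSRNOG00000022483 (-0.45, adjusted p = 0.0785) and ENSRNOG00000003005 (-0.56, adjusted p = 0.133). Their normoxia libraries held between 73 and 207 counts, and a missed threshold does not show a full return. ENSRNOG00000022483 was called lower under 4 of 18 alternative settings and ENSRNOG00000014882 under 1. ENSRNOG00000001006 was called by a small margin (-0.74, adjusted p = 0.0407), and 7 of 18 alternative settings did not call it.

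The nearest group for comparison was the 397 IDs with a mean of at least 1 CPM that fell between 2- and 4-fold. Their median position was 34.4%, or 31.0%, 35.8% and 35.1% by library (mean 33.97% ± 2.59, SD, n = 3), which overlaps the 33.9% to 37.1% of the set. Their interquartile range was wider, from 26.3% to 42.6%, with a median standard error of 5.76 percentage points against 3.40 in the set. At levels from 29.3 CPM upward, 147 of them had an interquartile range of 12.2 points and a median standard error of 2.72, against 5.09 and 1.29 in the 37 IDs of the set. Both the width and the standard error were larger in the 147, and neither the difference in width nor its cause was tested. In that range 14 of the 147 lay below 20%, while the lowest of the 37 stood at 23.0%. The separation of groups was not particular to the set. All 3 treated libraries lay above the 3 H/R-DMSO libraries in 342 of the 397 IDs and in 146 of the 147. They lay below the 3 normoxia libraries in 369 of the 397.

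**Figure D5:**
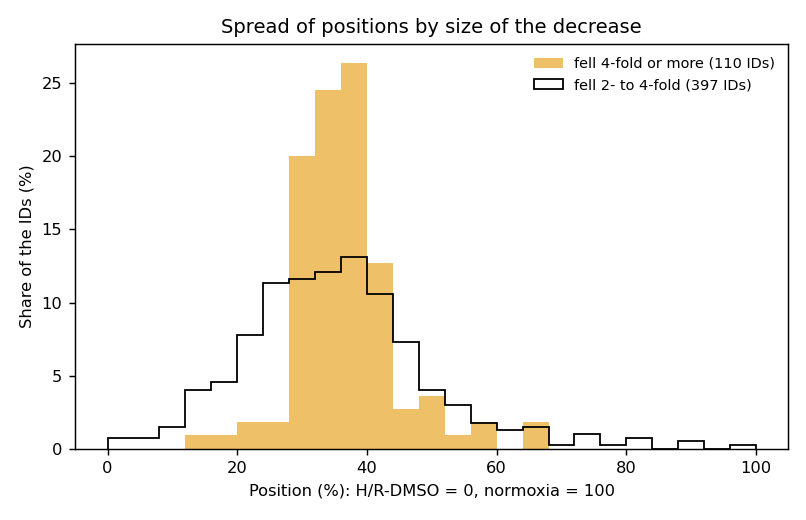
Share of IDs in percent by position, for the 110 IDs that fell 4-fold or more (filled) and the 397 that fell 2- to 4-fold (outline). Both peak between 30% and 40%, and the outline is wider, with interquartile ranges of 7.58 and 16.3 percentage points.

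The scale matters to how a return reads. On the log2 CPM scale the median position of the set was 57.4%, with an interquartile range from 53.9% to 61.6%, and it increased with the ratio (Spearman correlation 0.45 across the 110 IDs, a description). On the CPM scale the same libraries stood at 35.9%. A similar CPM position gives a higher log2 position at a larger ratio, so the correlation of 0.45 follows in part from the scale.

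Spread between replicates was larger in H/R-DMSO, where the IDs are low by the rule. The median coefficient of variation of the set was 4.81% in normoxia, 11.8% in H/R-DMSO and 6.49% in H/R-AS8351, against 4.72%, 5.65% and 5.01% over all IDs of at least 1 CPM. Only 2 of the 110 averaged under 10 counts in H/R-DMSO, and 0 had a library at 0 counts.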

How the data were processed

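The authors deposited raw counts per Ensembl ID, 1 table per library. The build was rn6 and the tools were featureCounts 2.0.1, STAR 2.7.3a, DESeq2 1.32.0 and Trimmomatic 0.39, per the submitters' processing notes, which give them no order here. How strand and multiply mapped reads were treated, and the annotation release, is not given in the sources used, so overlapping or near-identical genes can share counts. Groups and replicate numbers come from the sample titles.

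The main tests used edgeR 4.0.16 in R 4.3.3. Of the deposited counts, 15879 IDs passed filterByExpr on the 3 groups, at a minimum count of 10 and a minimum total of 15. Libraries were scaled by TMM, and 1 quasi-likelihood model of the group means was fitted to all 9 libraries, with Benjamini-Hochberg adjustment over all IDs tested. Fold changes in the text are from this fit, ratios and positions from mean CPM. The standard error of a position combines the SDs of the 3 groups. Scripts were tested on simulated counts with 200 changed genes.

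Named were the 2 IDs with the highest ratio, the 8 highest in normoxia and the 6 with the lowest and highest positions. The gene table (GRCr8, 47357 genes) pairs 0 IDs with a symbol, so the gene lists, markers and promoter sequences were not used. Members, lists and rules were chosen with earlier results of these data known. Alternatives were RLE, upper-quartile and total-count scaling, other filters and limits of the rule, DESeq2 1.42.0, limma-voom (limma 3.58.1), the 2 groups compared alone, a replicate block and each library left out.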

Additional observations from a re-analysis of the deposited data

How the results depend on the processing

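The IDs called higher with AS8351 than in H/R-DMSO numbered 108 under each of 9 other settings and 108 to 109 with a library left out. Those called lower than normoxia numbered 106 to 109 and 106 to 107. With the replicate block they were 108 and 107, and the same-numbered libraries did not deviate together (correlations from -0.02 to 0.04, and from -0.04 to 0.03 for other pairs). The block moved the calls over all IDs to 8539, 3940 and 6468 from 8364, 3671 and 6257. The size of the set follows its limits: 188 IDs at a ratio of 3, 65 at a ratio of 5, 67 at a mean of 5 CPM and 128 at 0.5 CPM. Total-count scaling moved the median log2 fold change of all IDs after H/R from 0.03 to 0.19, left 80 of the 110 IDs in the set and put the median position at 38.9%. On the log2 scale it was 57.4%. Leaving out 1 library gave 101 to 116 IDs and positions from 34.9% to 37.0%, and median ratios in left-out libraries from 5.36 to 5.67. Of 792 values of named IDs under alternatives, 0 changed direction and 13 changed their call, all in ENSRNOG00000001006 (adjusted p from 0.0177 to 0.144 by edgeR or the other tools), ENSRNOG00000022483 (0.0121 to 0.356), ENSRNOG00000014882 (0.0432 to 0.395) and ENSRNOG00000013953 (0.00413 to 0.707).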
